A study of Mus musculus with 12 samples.

Results

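The genes of 8 structural proteins of the myelin sheath, Mbp, Mag, Mog, Mobp, Cnp, Cldn11, Opalin and Mal, were described in cultured mouse oligodendrocyte progenitor cells (OPCs). They were chosen by symbol as proteins of compact and periaxonal myelin, and all 8 were among the 20540 genes of the deposited table. The cells came from C57BL/6 mouse brain taken on postnatal days 6 to 7, were grown in proliferation medium (SATO with PDGFRA, as the labels write it) and were transfected with a microRNA mimic, a synthetic RNA that acts as a mature microRNA. The mimic carried a biotin tag in every group, and was either a control mimic or miR-27a. RNA was sequenced from whole cells and from a pulldown of the tagged mimic, which gave 4 groups of 3 libraries: whole-cell control, whole-cell miR-27a, pulldown control and pulldown miR-27a. No group without a mimic was analysed here, and what sequence the control mimic had is not stated by the labels. Nor do they say that replicates were separate cultures, and the p-values therefore reflect only how far these libraries differ, which may be technical.

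Myelin is the stack of membrane that an oligodendrocyte wraps around an axon, and its protein genes are switched on as OPCs leave the cell cycle and differentiate. Compact myelin is held together by proteins on the cytoplasmic side of the membrane, while adhesion proteins line the face that touches the axon and others sit on the outermost surface. A microRNA guides an Argonaute protein to messenger RNAs, most often through pairing of its seed (bases 2 to 8) with sites in the 3′ UTR, and usually lowers their level or translation.

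The mature miR-27a-3p of mouse is shown because its seed, in capitals, defines the sites searched in the myelin genes. It lies at chr8:84208727-84208747 on the plus strand (GRCm38.p6, RefSeq).
mmu-miR-27a-3p: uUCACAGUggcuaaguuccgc
Sites were the 8mer ACTGTGAA and the 7mers ACTGTGA and CTGTGAA on the sense strand of annotated 3′ UTRs (GENCODE M21, GRCm38), where both 7mers lie within the 8mer. Of the 8 genes, only Mbp held a site in its longest 3′ UTR, of 3935 bases: 2 copies of CTGTGAA, at positions 416 and 3360, in 1 of its 10 transcripts with a 3′ UTR. The other Mbp transcripts held no site in their 3′ UTR, and which Mbp transcripts the reads came from was not tested. Mobp held 1 copy outside its longest 3′ UTR, in 1 of 6 transcripts with a 3′ UTR, at position 1044 of 2224 bases. That site is shown as the single one in the set outside Mbp, with the 7 matching bases in capitals, at chr9:120180304-120180310 on the plus strand (GRCm38).
Mobp site: cgatgtgaagtCTGTGAAtagtctgggat
No 8mer or 7mer was found in any annotated 3′ UTR of Mag, Mog, Cnp, Cldn11, Opalin or Mal. Over the table, 18014 symbols matched the annotation and 15568 had a 3′ UTR, and an 8mer or 7mer was in the longest 3′ UTR of 30.01% of these. A match is a description of letters and not a shown site of binding.

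Values are CPM recovered from the deposited log2 CPM, that is, reads per 10 to the power of 6 of the library size as scaled in the deposit. The libraries held 15548418 to 24972188 assigned reads. The scaled size was 0.961 to 0.974 of the assigned reads in whole-cell libraries and 1.02 to 1.05 of them in pulldown libraries. CPM is a share of that scaled size, so it does not give the amount of RNA captured. In bulk RNA, fewer cells of a type and less RNA per cell cannot be told apart. The labelled cell type was checked against marker lists. The 10 OPC markers, Pdgfra and Olig2 among them, all passed the filter and summed to 2652 to 2733 CPM in whole-cell control RNA and 2744 to 2756 CPM under miR-27a. The 8 astrocyte markers summed to more, 7987 to 8027 CPM in whole-cell control RNA and 6801 to 6857 CPM under miR-27a. A single astrocyte marker held 3735 CPM of this on average in whole-cell control RNA. In pulldown RNA, OPC markers summed to 4241 to 4317 CPM with control mimic and 4951 to 5084 CPM with miR-27a, and astrocyte markers to 5367 to 5518 and 3880 to 4371 CPM. Microglial markers summed to at most 27 CPM in any library, with Aif1 and C1qb below 1 CPM in all 12. Neuronal markers summed to 133 to 236 CPM, with Rbfox3 and Slc17a7 below 1 CPM throughout. Most of that sum came from a single gene, with group means of 91.2 to 159 CPM. The endothelial, mural and fibroblast list summed to 48.0 to 104 CPM, with Cldn5 below 1 CPM. Among Schwann cell markers, which share some genes with central myelin, Pmp2 was below 1 CPM in all 12 libraries and most of the sum of 610 to 1048 CPM was Sox2. No marker was at 0 in all libraries.

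Mal lies on chr2:127633226-127656695 (minus strand), Cldn11 on chr3:31149920-31164324 (plus), Mag on chr7:30899176-30914873 (minus) and Mobp on chr9:120149707-120181484 (plus). Cnp lies on chr11:100574904-100591729 (plus), Mog on chr17:37010743-37023398 (minus), Opalin on chr19:41061710-41077113 (minus) and Mbp on chromosome 18, all in GRCm38.

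The level of the 8 genes together was lower in pulldown than in whole-cell RNA. It was 7371 ± 379 CPM (SD, n = 3) in whole-cell control RNA, 6946 ± 237 CPM in whole-cell miR-27a RNA, 3756 ± 273 CPM in pulldown control RNA and 2745 ± 107 CPM in pulldown miR-27a RNA. Mbp, Cnp, Cldn11 and Mag made up nearly all of it. The share of the sum held by Mbp was 38.3% ± 0.52 in whole-cell control RNA and 16.1% ± 0.97 in pulldown miR-27a RNA, while that of Cldn11 went from 11.7% ± 0.14 to 27.6% ± 0.77.

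**Figure D1:**
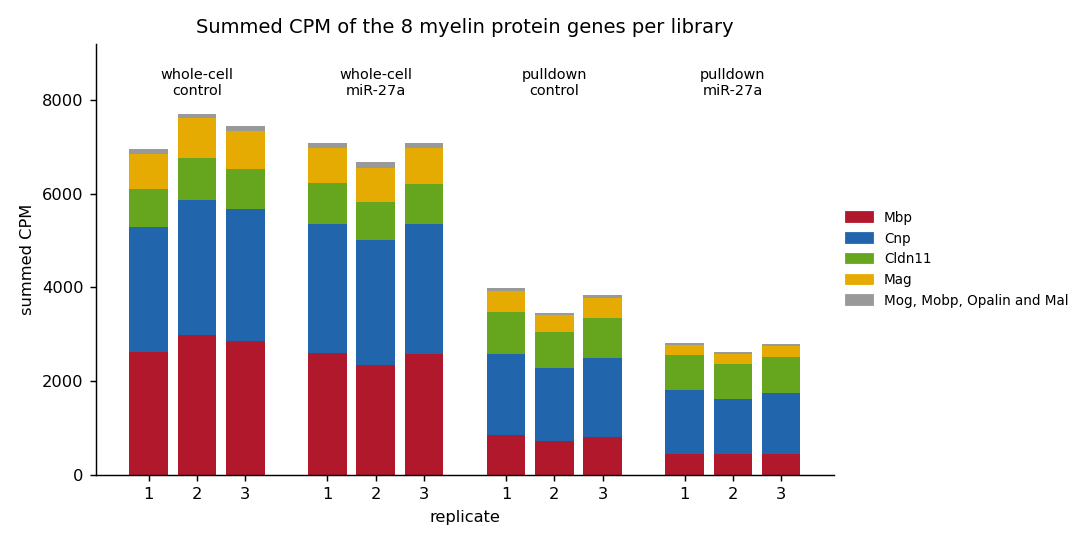
Summed CPM of the 8 myelin genes in each of the 12 libraries, by replicate and group, with 1 colour for each of the 4 highest genes and grey for Mog, Mobp, Opalin and Mal together. Every pulldown library lies below every whole-cell library, and the highest pulldown miR-27a library (2820 CPM) lies below the lowest pulldown control library (3452 CPM).

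Levels of different genes were compared per kilobase of annotated exon, taken over all transcripts of a gene. That length was 8469 bases for Mbp and 3639 for Cnp, against 4797 and 2357 in the transcript with the longest 3′ UTR. For Cldn11 both were 1870 bases, so the orders given here hold only for this length. In whole-cell control RNA the order was Cnp (766 CPM per kb), Cldn11 (459), Mbp (333), Mag (197), Opalin (23.5), Mog (9.35), Mobp (1.87) and Mal (1.02), with no overlap between neighbours. Whole-cell miR-27a RNA had the same order, with Mobp and Mal overlapping. In pulldown control RNA Cnp (455 CPM per kb) and Cldn11 (449) overlapped, as did Mag (102) and Mbp (94.0), and Mobp (0.261) fell below Mal (0.972). In pulldown miR-27a RNA Cldn11 (405 CPM per kb) lay above Cnp (353) without overlap, and Mag (54.2) and Mbp (52.0) overlapped.

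**Figure D2:**
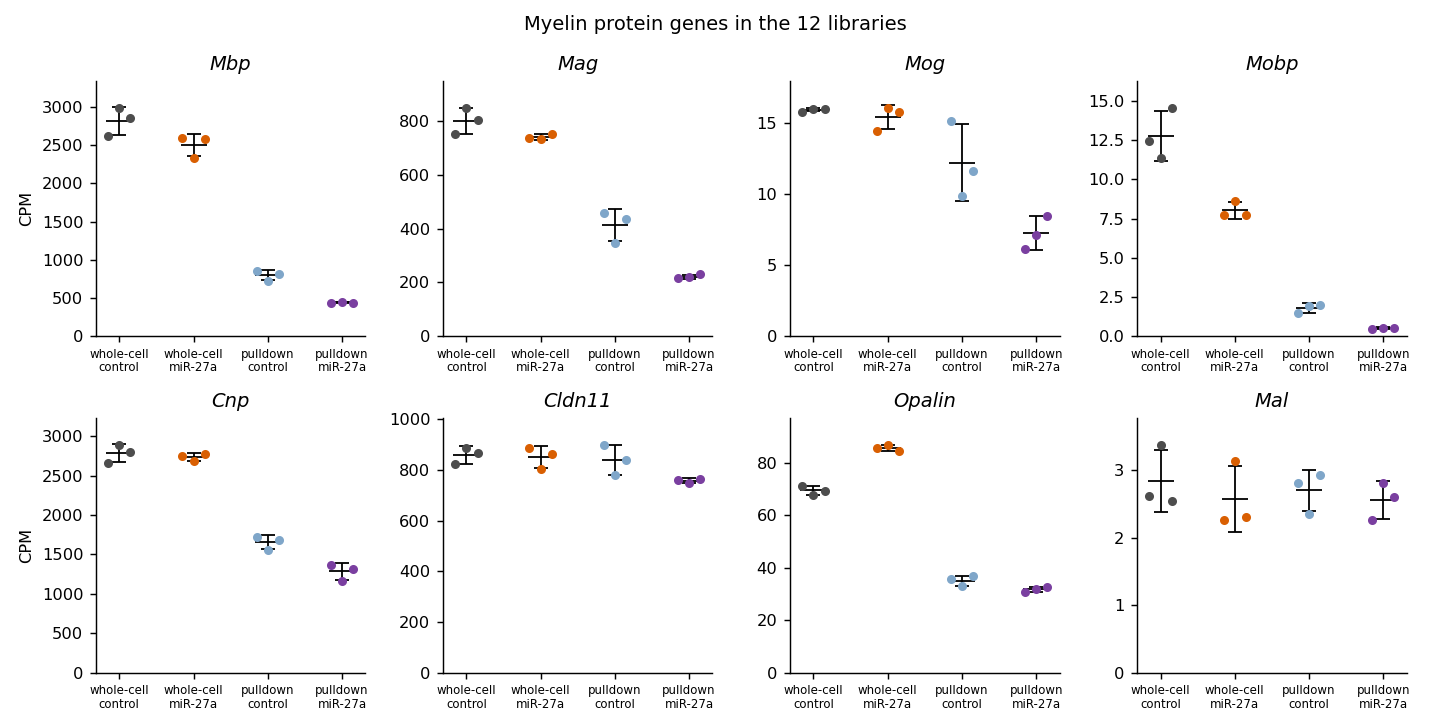
CPM of each myelin gene in the 12 libraries, by group (dots, libraries; bars, mean and SD over 3 libraries; each panel has its own scale from 0). Mbp, Mag, Mobp, Cnp and Opalin lie lower in both pulldown groups than in both whole-cell groups. Over the 12 libraries Cldn11 lies at 748 to 899 CPM and Mal at 2.26 to 3.37 CPM.

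The first comparison asked how these genes differed between mimics in whole cells. Mobp, Mbp and Mag fell and Opalin rose, and the other 4 genes did not pass the test. Tests used limma on log2(CPM + 1), two-sided, with Benjamini-Hochberg adjustment over all genes tested and a threshold of 0.05. Of the 8 genes, 3 fell and 1 rose, while 24.9% of the 13393 genes tested passed, 13% higher and 11.9% lower. The median log2 change of the 8 was -0.08, against 0.01 over all genes tested. In these libraries 5 of the 10 OPC markers rose, Olig1 and Olig2 among them, and 1, Pdgfra, fell (log2 change -0.14, adjusted p = 0.00186). Of the 8 astrocyte markers 1 rose and 6 fell, and the part of these markers in the result was not tested.

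Mbp encodes the basic protein that joins the cytoplasmic faces of compact myelin, and its mRNA is carried into the cell's processes. It stood at 2625, 2985 and 2858 CPM in whole-cell control libraries and at 2599, 2338 and 2576 CPM under miR-27a. The groups did not overlap, and the log2 change was -0.17 ± 0.04 (SE; adjusted p = 0.00437). Mobp, another small basic protein of compact myelin in the central nervous system, was at 12.4, 11.4 and 14.5 CPM in control and 7.70, 8.64 and 7.71 CPM under miR-27a. Every miR-27a library was below every control library, with a log2 change of -0.61 ± 0.10 (adjusted p = 9.24e-05). Mobp ranked 98 from the lowest of the 13393 changes, and its call held under all 15 alternatives.

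Opalin, a transmembrane glycoprotein of oligodendrocytes, moved the other way. It was at 71.1, 67.6 and 69.3 CPM in control and 85.4, 86.7 and 84.2 CPM under miR-27a, with no overlap. The log2 change was 0.30 ± 0.04 (adjusted p = 2.18e-05), and this call also held under all 15 alternatives. Mag, the adhesion protein of the periaxonal membrane, was at 750, 848 and 806 CPM in control and 738, 733 and 752 CPM under miR-27a. The values overlapped in 1 library of each group, and the log2 change was -0.11 ± 0.04 (adjusted p = 0.0295).

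The remaining 4 genes overlapped between the groups. Cnp, an enzyme of the cytoplasmic channels of non-compact myelin, differed by -0.02 (95% interval -0.09 to 0.04; adjusted p = 0.644). For Cldn11, the claudin that forms tight junctions between myelin layers, the difference was -0.01 (-0.09 to 0.06; adjusted p = 0.818). For Mog, an immunoglobulin-like protein of the outer myelin surface, it was -0.05 (-0.21 to 0.12; adjusted p = 0.72). For Mal, a proteolipid of membrane trafficking, it was -0.11 (-0.40 to 0.19; adjusted p = 0.633), on 2.26 to 3.37 CPM. In all, the groups did not overlap for 3 of 8 genes, where 38.8% of all genes tested did not overlap (20.3% higher and 18.4% lower). The calls of Mbp and Mag depended on the processing: without any filter on low values their adjusted p was 0.0706 and 0.117, and in 1 fit of all 12 libraries 0.141 and 0.461. Mbp missed the threshold without the second whole-cell miR-27a library (0.0507), and Mag without any of 5 single libraries (0.0607 to 0.172): control libraries 2 and 3 and each miR-27a library. Without control library 2 its log2 change was -0.07.

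In pulldown RNA Mbp, Mag, Mog, Mobp and Cnp were lower with miR-27a than with control mimic, no gene was higher, and Cldn11, Opalin and Mal did not pass. Among the 13586 genes tested 13.1% passed, 6.05% higher and 7.06% lower. With the replicate number as a block, the genes called went from 822 higher and 959 lower to 1274 and 1469, and the calls of the 8 myelin genes did not change. The median log2 difference of the 8 genes was -0.52, against -0.00093 over all genes tested. One of the 5, Mobp, passed the filter on low values only through its control libraries, which leaves 4 of the other 7, with a median of -0.37. Values of the mimics did not overlap for 7 of 8 genes, all lower, where 30.9% of genes tested did not overlap (14.4% higher and 16.6% lower); without Mobp this was 6 of 7. Within the same libraries the OPC markers had 4 of 10 higher and none lower, and the astrocyte markers 5 of 8 lower and none higher. Their part in the result was not tested.

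Mbp was at 848, 725 and 815 CPM in pulldown control and 434, 450 and 436 CPM in pulldown miR-27a. The miR-27a mean was 55.3% of the control mean, and the log2 difference was -0.85 ± 0.08 (adjusted p = 1.24e-05). Mag went from 459, 346 and 436 to 214, 218 and 229 CPM, or 53.3% of the control mean, a log2 difference of -0.89 ± 0.10 (adjusted p = 2.95e-05). Both held under every alternative run. Mobp was at 1.44, 1.93 and 2.00 CPM in control, on 24, 50 and 47 reads, and at 0.433, 0.527 and 0.512 CPM with miR-27a, on 9, 12 and 11 reads. Its log2 difference was -0.90 ± 0.19 (adjusted p = 0.00455), but with only the 3 control libraries at or above 1 CPM it had to be higher there. Its log2 difference was -1.45 with a pseudocount of 0.25, -0.31 with a pseudocount of 5 and -1.84 with limma voom on recovered reads. Mobp exons overlap Gm38642 on the same strand, so reads there cannot be told apart by strand.

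Mog was at 15.2, 9.84 and 11.6 CPM in control and 6.11, 7.12 and 8.47 CPM with miR-27a, a log2 difference of -0.67 ± 0.16 (adjusted p = 0.0094). Cnp was at 1722, 1554 and 1688 CPM and then 1369, 1164 and 1321 CPM, a log2 difference of -0.37 ± 0.09 (adjusted p = 0.0166). Neither gene had overlapping values, yet both missed the threshold without the first pulldown control library, at 0.0722 for Mog and 0.1 for Cnp. Without a filter on low values they reached 0.0607 and 0.11, and Cnp also missed it without pulldown control library 3 (0.11) or miR-27a library 3 (0.055). Cnp exons overlap Dnajc7 on the opposite strand, and the strand setting of the counting is not stated. Dnajc7 was at 132 ± 1.9 CPM in pulldown control and 132 ± 7.2 CPM in pulldown miR-27a.

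Cldn11 was at 899, 780 and 840 CPM in pulldown control and 762, 748 and 765 CPM with miR-27a, which did not overlap, but the log2 difference of -0.14 (95% interval -0.32 to 0.04) did not pass (adjusted p = 0.302). Opalin, at 35.5, 33.0 and 36.7 and then 30.6, 31.7 and 32.7 CPM, differed by -0.14 (-0.34 to 0.06; adjusted p = 0.37). Mal, at 2.26 to 2.93 CPM over the 6 libraries, differed by -0.06 (-0.40 to 0.29; adjusted p = 0.867). In pulldown control RNA, replicate 2 was the lowest of the 3 libraries for 7 of the 8 genes, the exception being Mobp. Replicate 1 was the lowest for 6 of the 8 in pulldown miR-27a RNA and for 5 in whole-cell control RNA.

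**Figure D3:**
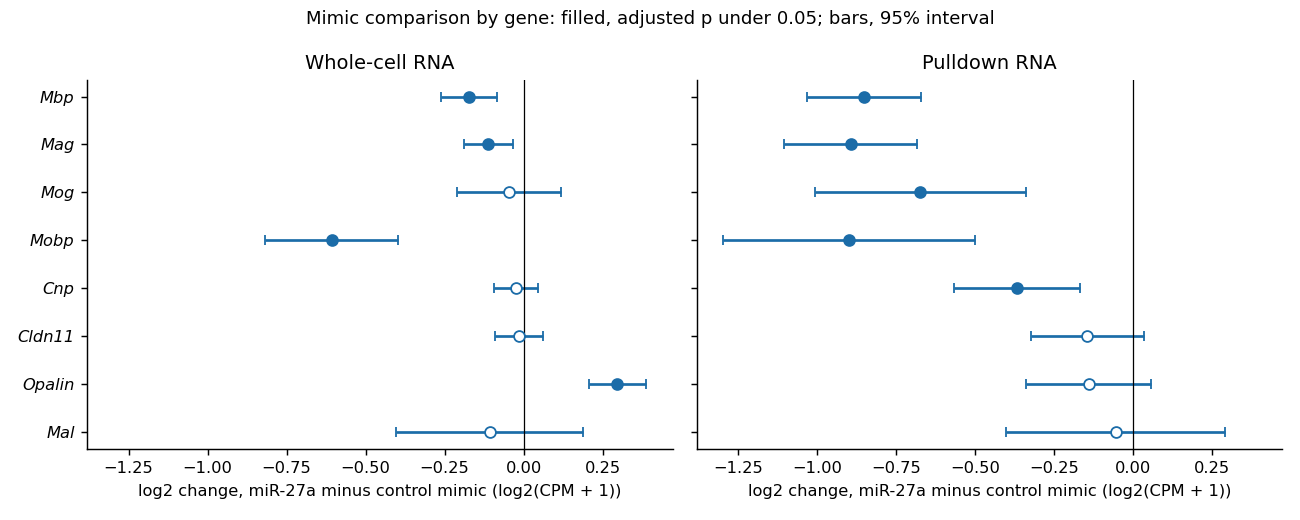
log2 change with miR-27a against control mimic for the 8 myelin genes in whole-cell (left) and pulldown RNA (right), with 95% intervals from limma (filled, adjusted p under 0.05). Opalin lies right of 0 in whole-cell RNA (0.30), while Mbp (-0.85), Mag (-0.89) and Mobp (-0.90) lie farthest left in pulldown RNA. Mobp passed the filter there only through its control libraries, and its place depends on the pseudocount (-0.31 with a pseudocount of 5).

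Pulldown and whole-cell RNA were then compared within each mimic, from a fit of all 12 libraries. With control mimic, 6 of the 8 genes were lower in pulldown RNA and none was higher. Of the 13875 genes tested 62% passed, 31.7% higher and 30.3% lower, so 6 of 8 stands beside a background in which most genes differ. Values did not overlap for 6 of the 8, against 67.5% of genes tested (34.2% higher and 33.3% lower). Of the OPC markers 7 of 10 were higher and none lower, and of the astrocyte markers 2 of 8 were higher and 5 lower, and their part in the result was not tested. The median log2 difference of the 8 was -0.86, against 0.02 over all genes. Mobp had the third lowest log2 difference of all genes tested, -2.30 ± 0.13 (adjusted p = 1.12e-10), and Mbp the 11th lowest, -1.83 ± 0.07 (adjusted p = 1.76e-12). Their pulldown means were 14% and 28.2% of their whole-cell means. Opalin (-0.97 ± 0.06; adjusted p = 7.58e-10), Mag (-0.96 ± 0.08; adjusted p = 1.36e-08) and Cnp (-0.75 ± 0.07; adjusted p = 4.80e-08) followed, at 50.5%, 51.6% and 59.4%. Mog was lower by less (-0.38 ± 0.13; adjusted p = 0.0167), and that call ended with library totals in place of the deposited scaling (0.0578) and without pulldown control library 2 (0.115, log2 difference -0.24) or 3 (0.0507). Cldn11 differed by -0.03 (95% interval -0.17 to 0.10; adjusted p = 0.649) and Mal by -0.05 (-0.35 to 0.25; adjusted p = 0.779), which left Cldn11 at 97.7% and Mal at 95.1% of the whole-cell mean. Library totals turned both to a positive difference, 0.056 and 0.017.

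With miR-27a, 7 of the 8 were lower in pulldown RNA and none was higher, beside 60.2% of genes called (29.3% higher and 30.9% lower) and a median log2 difference of -1.25 against -0.01 over all genes. Values did not overlap for 7 of the 8, against 63.9% of genes tested (31.8% higher and 32.1% lower), and the OPC markers had 8 of 10 higher and none lower, the astrocyte markers 1 of 8 higher and 5 lower. Mobp had the lowest log2 difference of all 13875 genes, -2.60 ± 0.13 (adjusted p = 1.90e-11), and Mbp the second lowest, -2.50 ± 0.07 (adjusted p = 1.17e-14). No pulldown miR-27a library reached 1 CPM for Mobp, which lay at 0.433 to 0.527 CPM there. It is counted among the 7, but it passed the filter on low values only through groups where it was higher, which limits its rank and call. Mag was the 13th lowest at -1.74 ± 0.08 (adjusted p = 6.54e-12) and Opalin the 42nd at -1.40 ± 0.06 (adjusted p = 5.98e-12). Pulldown means were 6.12% of the whole-cell mean for Mobp, 17.6% for Mbp, 29.8% for Mag, 37.1% for Opalin, and 46.9% for both Mog and Cnp. Cldn11 was at 89.1%, and its log2 difference of -0.16 ± 0.06 (adjusted p = 0.0307) was lost without a filter on low values (0.0662), with library totals (0.412, log2 difference -0.06), with only the groups compared in the fit (0.0612), and without whole-cell miR-27a library 1 (0.131) or 3 (0.0936) or pulldown miR-27a library 3 (0.0542). Mal was at 99.7%, with a log2 difference of 0.00 (-0.30 to 0.30; adjusted p = 0.99). For Mobp the size depends on the scale: the log2 difference under miR-27a was -1.24 with a pseudocount of 5 and -3.97 with limma voom, and with control mimic -1.39 and -2.79.

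**Figure D4:**
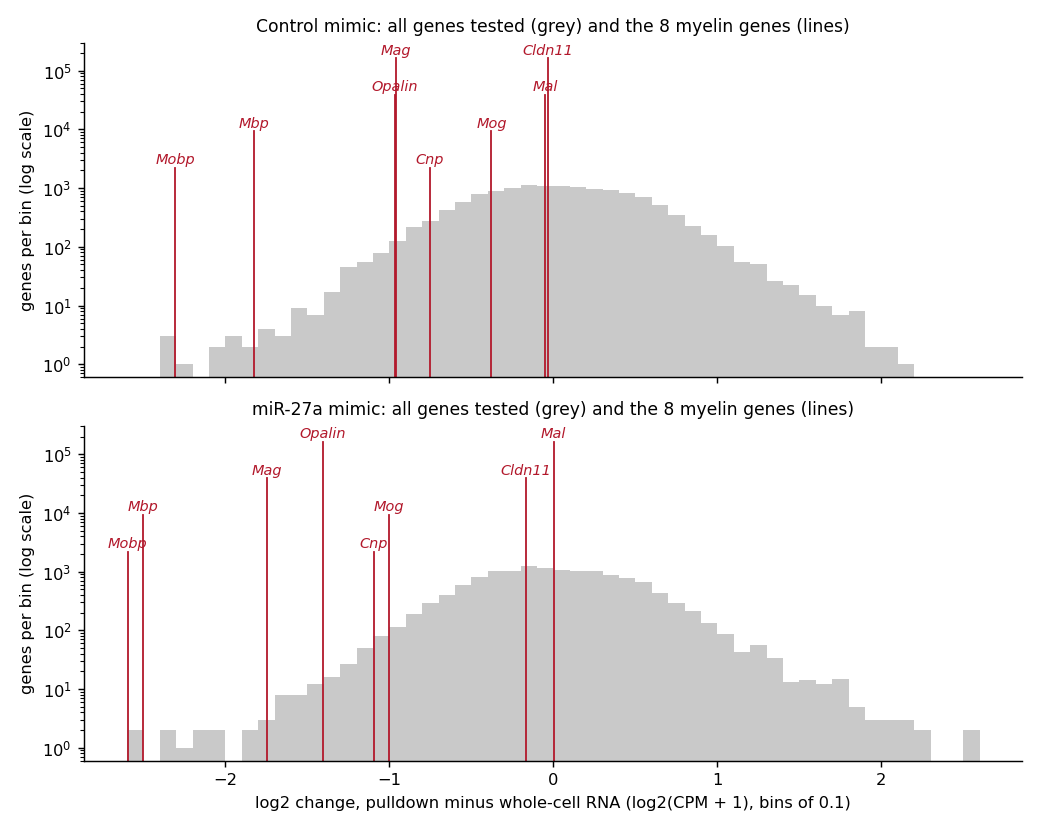
Distribution of the log2 difference between pulldown and whole-cell RNA over all 13875 genes tested (grey bars, genes per bin of 0.1 on a log axis), with the 8 myelin genes as red lines, for control mimic (top) and miR-27a (bottom). Line heights differ only to separate the names. Mobp and Mbp lie at the far left under both mimics, and Mal and Cldn11 near 0. Mobp was below 1 CPM in every pulldown miR-27a library.

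Whether the effect of miR-27a differed between pulldown and whole-cell RNA was tested as the difference of the log2 changes, with their signs. It was past the threshold for Mag, Mbp and Opalin, all lower in pulldown, and 1.07% of the 13875 genes passed (0.339% higher and 0.735% lower). Mag had -0.78 ± 0.11 (adjusted p = 0.00249) and Mbp -0.68 ± 0.10 (adjusted p = 0.00249), and both held under every alternative run. Opalin had -0.44 ± 0.09 (adjusted p = 0.0241), made of a rise in whole-cell RNA and a difference in pulldown RNA that did not pass. Its call was lost without any of 8 single libraries (adjusted p 0.054 to 0.0854): each whole-cell library and pulldown control libraries 1 and 3. Mog (-0.63 ± 0.18; adjusted p = 0.111) and Cnp (-0.34 ± 0.10; adjusted p = 0.108) did not pass, nor did Mobp (-0.29 ± 0.18; adjusted p = 0.538), Cldn11 (-0.13 ± 0.09; adjusted p = 0.579) and Mal (0.05 ± 0.20; adjusted p = 0.949). For Mobp the difference was -0.80 with a pseudocount of 0.25, -1.17 with limma voom and 0.14 with a pseudocount of 5, and passed under none of these (adjusted p = 0.115, 0.117 and 0.593). Mog passed without pulldown control library 2 (0.0433) and Cnp without pulldown miR-27a library 1 (0.0231) or 2 (0.0415). Changes of the same genes in the comparisons above share libraries and are not independent of each other.

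Other genes of the myelin pathway were described from 3 lists. Beside these lists, 24.9% of all genes tested passed in whole-cell RNA, 13% higher and 11.9% lower, with a median log2 change of 0.01. In pulldown RNA 13.1% passed, 6.05% higher and 7.06% lower, with a median of -0.00093. Of 24 other myelin and mature oligodendrocyte proteins, 23 were tested in whole-cell RNA, where 5 rose and 5 fell, and 21 in pulldown RNA, where 1 was higher and 5 lower. Their median log2 changes in whole-cell and pulldown RNA were -0.04 and -0.14. Bcas1, a protein of newly forming oligodendrocytes, was lower with miR-27a in both (-0.23 ± 0.03; adjusted p = 8.03e-06, and -0.28 ± 0.09; adjusted p = 0.0437), and Gpm6b, a membrane proteolipid, rose in whole-cell RNA (0.10 ± 0.03; adjusted p = 0.0385).

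Of 6 genes of myelin lipid synthesis, 1 rose and 2 fell in whole-cell RNA, and 4 of 5 tested were lower with miR-27a in pulldown RNA. The median log2 changes of this list were -0.07 and -0.38. Ugt8a, which makes galactosylceramide, fell by 0.14 in whole-cell RNA (adjusted p = 0.00241) and was lower by 0.36 in pulldown RNA (log2 -0.36 ± 0.10; adjusted p = 0.026). Gal3st1, which adds sulphate to that lipid, rose in whole-cell RNA (0.12 ± 0.04; adjusted p = 0.0358) and was lower in pulldown RNA (-0.52 ± 0.09; adjusted p = 0.000948), a difference of -0.64 ± 0.10 (adjusted p = 0.00249). Of 14 lineage transcription factors, 5 rose and 3 fell in whole-cell RNA, and 1 was higher and 3 were lower in pulldown RNA. The median log2 changes of these factors were 0.03 in whole-cell RNA and -0.07 in pulldown RNA. Olig1, which promotes oligodendrocyte maturation, was higher in both (0.41 ± 0.05; adjusted p = 1.18e-06, and 0.33 ± 0.09; adjusted p = 0.02). Olig2, which specifies the lineage, rose in whole-cell RNA (0.31 ± 0.04; adjusted p = 2.32e-06), as did Sox6, a factor of the progenitor state (0.11 ± 0.04; adjusted p = 0.0362).

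Genes whose values over the 12 libraries were most like the mean of the 8 were ranked among 7586 genes with a mean of at least 20 CPM, by the root-mean-square difference of centred log2(CPM + 1). Sirt2, a deacetylase found in myelin and a member of the first related list, was nearest at 0.043. Fnta (0.073), S100b (0.074), Eml1 (0.084) and Osbpl1a (0.085) followed. Sirt2 was at 754 ± 35 CPM in whole-cell control, 726 ± 27 in whole-cell miR-27a, 396 ± 27 in pulldown control and 287 ± 12 CPM in pulldown miR-27a. By the same measure Cnp was the nearest of the 8 to their own mean (0.13), while Mobp (0.72), Mal (0.58), Mbp (0.54) and Cldn11 (0.52) lay farthest from it.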

How the data were processed

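The authors deposited log2 CPM for 20540 genes in 12 libraries. Per the series' design text, the authors depleted total RNA of ribosomal RNA, sequenced paired ends, trimmed them with skewer, aligned to GRCm38 with HISAT2, counted reads per gene with featureCounts, and normalised with edgeR. Besides GRCm38, mm8 is listed as a build in the submitters' processing notes, which give no role for it and no tool version. Every library had the same lowest value, -6.27, so 2 to the power of each value minus that of 0 reads gave CPM, and 100% of values were whole reads within 0.01 read.

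The test was limma 3.58.1 (R 4.3.3; empirical Bayes with a trend) on log2(CPM + 1), two-sided, for genes reaching 1 CPM in 3 or more of the fitted libraries. A fold change on that scale understates the change of low genes. The test was run on simulated data, with independent libraries and the same variability setting for every gene. That simulation does not cover replicates that deviate together. Mimics were compared within whole-cell or pulldown libraries (6 each), and the other comparisons came from all 12. Count tests were planned only for a deposit of raw counts and were not run, as the deposit holds log2 CPM. An alternative based on counts was limma voom on the recovered reads. Other alternatives were the pseudocount, the filter, the scaling, the samples in the fit, leaving out each library and the replicate number as a block. Pulldown replicates with the same number deviated together, so they may be paired, while whole-cell replicates did not. For these pulldown replicates the correlations of deviations from the group means were 0.13, 0.27 and 0.11 over 13875 genes. Pulldown control and miR-27a libraries of unlike number gave -0.20 to 0.06. Elsewhere unlike numbers also reached such values, up to 0.22 for whole-cell control library 1 with pulldown miR-27a library 2. Between whole-cell and pulldown libraries of the same number the correlations were 0.01, 0.16 and 0.13 with miR-27a. With control mimic they were -0.05, -0.10 and 0.01. The labels do not say whether libraries of the same number share a culture, and the main tests treat them as independent. The values reported are from the fit without the block, as planned, and the blocked fit is an alternative. Named genes were the 8, the 3 most abundant of each related list and the 5 genes of most similar pattern. Some genes that this rule or the marker lists take in are not reported here. Dnajc7 was named after its values were seen, because it overlaps Cnp. The genes, lists and tests were chosen with earlier results of these data known. Python 3.11.15, pandas 2.3.3, numpy 2.4.6 and matplotlib 3.10.9 made tables and plots. Intervals cover the spread between libraries, and read depth limits Mobp and Mal most.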

Additional observations from a re-analysis of the deposited data

Results flagged for a closer look

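For 3 of the 8 genes the effect of miR-27a differed between whole-cell and pulldown RNA by a test of the difference itself, beside 1.07% of all genes tested. The difference in log2 change, pulldown minus whole-cell, was -0.78 for Mag, -0.68 for Mbp and -0.44 for Opalin. Mag and Mbp were lower with miR-27a in both kinds of RNA, while Opalin rose in whole-cell RNA and did not pass the test in pulldown RNA. The call of the difference for Opalin was lost under 8 of 20 alternatives. The whole-cell calls of Mag and Mbp were lost under 7 and 3 of 15.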

How the results depend on the processing

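Without a filter on low values, 1 myelin gene was lower in whole-cell RNA and 3 in pulldown RNA, and the difference of mimic effects called 30 genes higher and 43 lower over the table. With all 12 libraries in 1 fit, the mimic effect called 760 genes higher and 655 lower in whole-cell RNA, 1 of them a lower myelin gene, and 1403 higher and 1648 lower in pulldown RNA. The replicate block moved the pulldown counts from 822 higher and 959 lower to 1274 and 1469, and changed no call of a myelin gene in any comparison. Leaving out each library gave 1207 to 1791 higher and 1172 to 1594 lower genes for the whole-cell mimic effect, with 1 to 3 lower myelin genes. In pulldown RNA it gave 474 to 1267 higher and 493 to 1424 lower, with 2 to 5 lower myelin genes; without any 1 control library Mobp no longer passed the filter. For the difference of mimic effects it gave 21 to 159 higher and 22 to 314 lower, with 2 to 4 lower myelin genes. Of called genes, 31.5% were higher for that difference, and 42.4% with median-of-ratios scaling; under miR-27a, 48.7% of genes called between pulldown and whole-cell RNA were higher, and 60.2% with library totals. The direction turned for Cldn11 (0.056) and Mal (0.017) in pulldown against whole-cell control RNA with library totals, and with a pseudocount of 5 for Mal under miR-27a (-0.00037) and Mobp in the difference of effects (0.14, from -0.29); none of these passed the test. Leaving out single libraries spanned 0 for Cnp (-0.057 to 0.0021) and Cldn11 (-0.046 to 0.027) in the whole-cell mimic effect, Mal in the pulldown mimic effect (-0.13 to 0.0061), Cldn11 (-0.085 to 0.017) and Mal (-0.11 to 0.047) in pulldown against whole-cell control RNA, Mal under miR-27a (-0.058 to 0.11) and Mal in the difference of effects (-0.045 to 0.16). The cause was not tested. With all annotated 3′ UTRs in place of the longest, 32.9% of genes held a seed site.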
